A study of Mus musculus with 6 samples.

Results

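The 9 genes described here encode enzymes that oxidise alcohols and aldehydes in the liver: the alcohol dehydrogenases Adh1, Adh4 and Adh5 and the aldehyde dehydrogenases Aldh1a1, Aldh1a7, Aldh1b1, Aldh2, Aldh3a2 and Aldh9a1. They were taken by symbol from a table of 55450 genes, and each of the 9 symbols matched 1 entry. The left liver lobe of 6 C57BL/J mice aged 10 weeks gave poly(A) RNA for 1 sequencing library per mouse. The 3 knockout mice were LKB1 fl/fl, so that their LKB1 gene (symbol Stk11) carried loxP sites, and the 3 wild type (WT) mice were labelled as of normal genotype. All 6 mice, controls included, had received AAV8 Cre at 6 weeks of age, 4 weeks before the liver was taken. AAV8 is an adeno-associated virus serotype used to reach hepatocytes, and Cre is the recombinase that removes DNA between loxP sites. The promoter that drives Cre is not given in the sources used here.

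Alcohol dehydrogenases are zinc enzymes that use NAD+ to turn alcohols such as ethanol and retinol into aldehydes, and aldehyde dehydrogenases then turn aldehydes into acids. In hepatocytes this sequence carries ethanol to acetaldehyde and acetate, retinol to retinal and retinoic acid, and it clears aldehydes that arise from lipids and amines. LKB1 is a kinase that activates AMPK and related kinases, and the series title names metabolic reprogramming of the LKB1 knockout liver as its subject. The comparison asked here is whether the transcripts of these oxidation steps differ between knockout and WT liver.

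Total counts per library ran from 47659122 to 56147667, and the 9 genes together held 0.512% to 0.649% of them. Stk11, a kinase gene outside the set and the check of the labels, stood at 22.1, 14.4 and 11.4 CPM (counts scaled to a common library size) in knockout replicates 1 to 3 and at 66.1, 64.2 and 69.7 CPM in WT replicates 1 to 3. Stk11 had a log2 fold change of -2.06 ± 0.247 (standard error, SE) with an edgeR adjusted p of 0.0167, which became 0.0636, 0.0607, 0.102 and 0.104 without knockout replicate 2, knockout replicate 3, WT replicate 2 and WT replicate 3. Replicate 1 of both groups stood apart from the other 4 libraries: it held 42472 (knockout) and 29243 (WT) counts of Xist and 6 and 3 counts over Ddx3y, Eif2s3y, Kdm5d and Uty, against at most 16 Xist counts and 6146 to 8199 counts of these Y-linked genes in the others. The labels give no sex. Stk11 had a log2 difference of -1.58 in the replicate 1 pair and of -2.38 in replicates 2 and 3. Each group holds 1 library of the Xist kind, so that kind, that mouse and its Stk11 level cannot be told apart. Values from replicates 2 and 3 alone are therefore given beside those from all 6 libraries.

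No member passed an adjusted p of 0.05 in edgeR's quasi-likelihood test over all 6 libraries, where 3.37% of the 14539 genes tested did, 2.15% as higher in knockout and 1.22% as lower. The count of 0 of 9 stands beside 2 members, Adh4 and Aldh1b1, with an unadjusted p below 0.05, where 26.3% of all genes had one. DESeq2 called the same 2 members, where it called 15.7% of all genes, and limma voom called 0. By sign 3 members were higher in knockout liver and 6 were lower, with a median log2 fold change of -0.13 over the 9 and 0.01 over all genes tested. In 3 of 9 members the knockout and WT libraries did not overlap, beside 32.4% of all genes: Aldh1b1 was higher in knockout, beside 16.9%, and Adh4 and Aldh9a1 were lower, beside 15.5%. With replicates 2 and 3 alone (2 against 2), 5 of 9 members passed, beside 33.3% of all genes: Aldh1b1 rose, and Adh4, Aldh1a1, Aldh3a2 and Aldh9a1 fell. In bulk tissue, fewer cells of a type and less RNA per cell cannot be told apart.

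**Figure D1:**
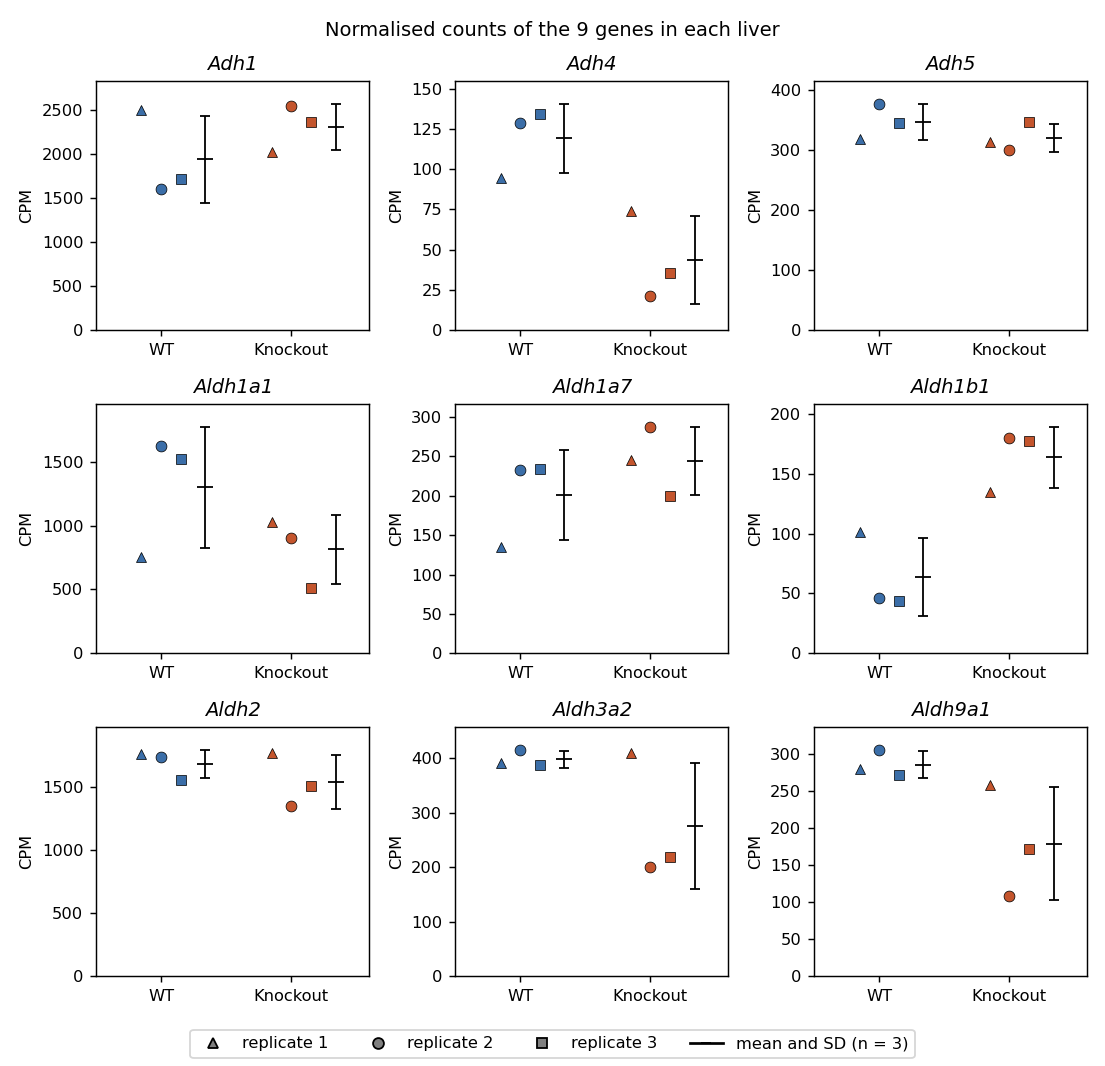
CPM of each of the 9 genes (vertical axis, from 0) in WT (blue) and knockout (orange) livers, with 1 point per library, the replicate number as the point's shape, and the mean and SD of 3 libraries beside them. Adh4 and Aldh9a1 lie lower in all 3 knockout libraries than in any WT library and Aldh1b1 lies higher, while replicate 1 of the 2 groups sits closer together than replicates 2 and 3 for Adh4 and Aldh1b1.

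Of the 3 alcohol dehydrogenases in the set, Adh4 had the largest difference by size. Adh4, which oxidises medium-chain alcohols and retinol besides ethanol (ENSMUSG00000037797.14, GRCm38 chromosome 3, 138415466 to 138430892, plus strand), measured 73.9, 21.4 and 35.6 CPM in knockout replicates 1 to 3 and 94.6, 128 and 134 CPM in WT replicates 1 to 3. All 3 knockout libraries lay below all 3 WT libraries, and the highest knockout library and the lowest WT library were the 2 replicates 1. On average it reached 43.6 ± 27.2 CPM in knockout liver against 119 ± 21.5 CPM in WT liver (SD, n = 3), a fold of 0.366. The log2 fold change was -1.45 ± 0.435 (SE, 95% interval -2.48 to -0.42, edgeR adjusted p = 0.100), so that Adh4 did not pass over all 6 libraries. In replicates 2 and 3 it fell by 2.21 ± 0.251 on the log2 scale (edgeR adjusted p = 0.00331), whereas the replicate 1 pair differed by -0.35. Leaving out knockout replicate 1 alone also brought it past the threshold (log2 fold change -2.07, edgeR adjusted p = 0.00479), while leaving out any other single library did not (log2 fold change -1.11 to -1.59, edgeR adjusted p from 0.152 to 0.284).

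The stretch of 150 bases directly upstream of the annotated Adh4 gene (chr3:138415316-138415465, plus strand, RefSeq, GRCm38.p6) is shown because Adh4 had the largest difference of the 9 and the only member window with the half-site AGGTCA of nuclear receptors, here in capitals.
Adh4: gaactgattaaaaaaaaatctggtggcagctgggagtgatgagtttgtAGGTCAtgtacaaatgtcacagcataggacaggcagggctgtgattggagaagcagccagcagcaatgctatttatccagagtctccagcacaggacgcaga
This match starts 133 bases upstream of the RefSeq start site, and a second match, 11 bases upstream of it, lies within the annotated gene and is not printed. RefSeq windows of 250 bases before to 50 after a start were found for 8 of the 9 members, 10 windows in all. On both strands, AGGTCA occurred in 1 of these 10 windows and in 16.3% of all 32851 windows. The cyclic AMP response element TGACGTCA occurred in 0 of 10 and in 1.79% of all windows, and its shorter form TGACG, which lies within it, in 2 of 10 and in 20.8%. The TATA sequence TATAAA occurred in 2 of 10 and in 13.6%, and CCAAT in 6 of 10 and in 37.4%. These matches describe letters only.

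Adh1, the most abundant alcohol dehydrogenase of the liver and the main enzyme of ethanol oxidation (ENSMUSG00000074207.10, chromosome 3, 138260991 to 138290698, plus strand), measured 2026, 2541 and 2361 CPM in knockout replicates 1 to 3 and 2502, 1601 and 1715 CPM in WT replicates 1 to 3. The groups overlapped because WT replicate 1 lay above 2 of the 3 knockout libraries, at 151% of the mean of WT replicates 2 and 3. The log2 fold change of Adh1 was 0.25 ± 0.25 (SE, 95% interval -0.34 to 0.84, edgeR adjusted p = 0.551), and it was 0.56 ± 0.203 in replicates 2 and 3 (edgeR adjusted p = 0.0857). Adh5, the glutathione-dependent formaldehyde dehydrogenase (ENSMUSG00000028138.8, chromosome 3, 138443093 to 138455499, plus strand), measured 312, 300.5 and 346 CPM in knockout and 318, 377 and 344 CPM in WT replicates 1 to 3. The Adh5 libraries of both groups covered nearly the same range, with a log2 fold change of -0.12 ± 0.155 (SE, 95% interval -0.48 to 0.25, edgeR adjusted p = 0.666). The interval of Adh5 was the narrowest of the 9.

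Adh1, Adh4 and Adh5 lie in 1 cluster of 237.7 kb on chromosome 3, in the order Adh7, Adh1, Adh6a, Adh6b, Adh4, Adh5, all on the plus strand. The neighbours Adh4 and Adh5 thus had differences of -1.45 and -0.12, and Adh1 had the opposite sign, 0.25. Per kilobase of annotated exons (CPM per kb, the scale on which genes are compared here), Adh4 made up 5.02%, 1.22% and 2.14% of the summed level of these 3 genes in knockout replicates 1 to 3, against 5.24%, 10.1% and 10.0% in the same-numbered WT libraries. The 2 groups did not overlap in this share, although knockout replicate 1 and WT replicate 1 differed by little. Adh1 made up 81.9% to 90.0% of the sum in WT libraries and 89.3% to 94.2% in knockout libraries. The size of this and the later shares depends partly on the annotation, because all annotated exons of a gene enter its length.

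Neither mitochondrial aldehyde dehydrogenase passed over all 6 libraries. Aldh1b1, a mitochondrial enzyme of acetaldehyde and retinal oxidation (ENSMUSG00000035561.5, chromosome 4, 45799022 to 45804604, plus strand), measured 134, 179.9 and 177 CPM in knockout replicates 1 to 3 and 101, 46.2 and 43.8 CPM in WT replicates 1 to 3. Every knockout library lay above every WT library, and WT replicate 1 stood at 225% of the mean of the other 2 WT libraries. The means were 164 ± 25.4 CPM in knockout liver against 63.7 ± 32.6 CPM in WT liver (SD, n = 3), a fold of 2.57. The log2 fold change was 1.36 ± 0.349 (SE, 95% interval 0.54 to 2.19, edgeR adjusted p = 0.0756), which did not pass the threshold. In replicates 2 and 3 Aldh1b1 rose by 1.98 ± 0.116 (edgeR adjusted p = 5.82e-04), a fold of 3.95, and the replicate 1 pair differed by 0.41. It also passed without knockout replicate 1 (edgeR adjusted p = 0.0318) and without WT replicate 1 (edgeR adjusted p = 0.0191), but not without any of the other 4 libraries (edgeR adjusted p from 0.182 to 0.257).

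Aldh2, the main acetaldehyde dehydrogenase of liver mitochondria (ENSMUSG00000029455.14, chromosome 5, 121566027 to 121593824, minus strand), measured 1769, 1346 and 1506 CPM in knockout and 1761, 1736 and 1557 CPM in WT replicates 1 to 3. Knockout replicates 2 and 3 lay below all WT libraries and knockout replicate 1 above them. Aldh2 had a log2 fold change of -0.13 ± 0.199 (SE, 95% interval -0.60 to 0.34, edgeR adjusted p = 0.709). Per kilobase, Aldh1b1 made up 14.5%, 23.0% and 20.8% of the sum of Aldh1b1 and Aldh2 in knockout replicates 1 to 3, against 11.4%, 5.60% and 5.90% in the same-numbered WT libraries. Its mean share was 19.4% ± 4.39 in knockout and 7.63% ± 3.25 in WT (SD, n = 3), without overlap, and Aldh2 remained the larger part in all 6 libraries.

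**Figure D2:**
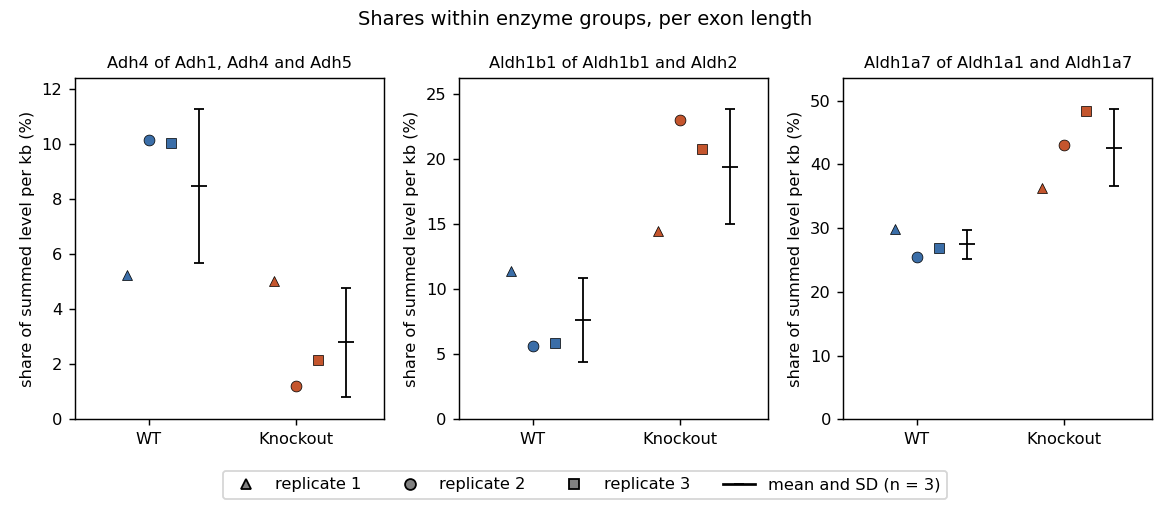
Share of 1 gene in the summed level per kilobase of its enzyme group, in percent (vertical axis, from 0), for WT (blue) and knockout (orange) livers, with 1 point per library and the mean and SD of 3. The share of Adh4 was lower in knockout (2.79% against 8.46%), and the shares of Aldh1b1 (19.4% against 7.63%) and Aldh1a7 (42.6% against 27.4%) were higher, with no overlap between the groups in any of the 3 panels. The shares of Adh1 and Adh5 among the alcohol dehydrogenases overlapped between the groups and are not plotted. How often shares of other genes overlap was not counted.

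Aldh1a1, the cytosolic enzyme that makes retinoic acid from retinal (ENSMUSG00000053279.8, chromosome 19, 20492715 to 20643465, plus strand), measured 1026, 906 and 511 CPM in knockout replicates 1 to 3 and 755, 1625 and 1519.7 CPM in WT replicates 1 to 3. WT replicate 1 was low, at 48.0% of the mean of the other 2 WT libraries, and lay inside the knockout range. The log2 fold change was -0.67 ± 0.38 (SE, 95% interval -1.58 to 0.23, edgeR adjusted p = 0.304). In replicates 2 and 3 Aldh1a1 fell by 1.16 ± 0.306 on the log2 scale (edgeR adjusted p = 0.0366), while the replicate 1 pair had the opposite sign, 0.44. Aldh1a7, its close relative in rodents (ENSMUSG00000024747.3, chromosome 19, 20692953 to 20727562, minus strand), measured 245, 287 and 200.2 CPM in knockout and 135, 233 and 235 CPM in WT replicates 1 to 3. The Aldh1a7 groups overlapped, with WT replicate 1 the lowest of the 6. Its log2 fold change was 0.28 ± 0.26 (SE, 95% interval -0.33 to 0.90, edgeR adjusted p = 0.522), and in replicates 2 and 3 it was 0.06 (95% interval -0.44 to 0.56).

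Aldh1a1 and Aldh1a7 are near copies, and their upstream stretches of 150 bases are shown because they share a run of 65 identical bases, in capitals, that starts 94 bases before each RefSeq start. The Aldh1a1 stretch (chr19:20601818-20601967, plus strand, RefSeq, GRCm38.p6) and the Aldh1a7 stretch (chr19:20727557-20727706, minus strand) both precede RefSeq starts that lie inside the genes as annotated by GENCODE.
Aldh1a1: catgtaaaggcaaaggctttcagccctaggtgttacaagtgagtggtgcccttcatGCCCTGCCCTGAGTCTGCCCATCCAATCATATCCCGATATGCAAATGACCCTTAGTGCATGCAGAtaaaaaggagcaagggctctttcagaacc
Aldh1a7: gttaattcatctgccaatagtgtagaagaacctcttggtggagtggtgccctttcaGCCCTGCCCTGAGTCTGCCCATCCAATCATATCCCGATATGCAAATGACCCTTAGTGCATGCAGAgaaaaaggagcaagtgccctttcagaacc
The 2 stretches were identical at 123 of 139 aligned bases (88.5%), and both hold CCAAT 72 bases upstream, within the capitals. Their longest reading frames, 1506 bases each, were identical at 1383 of 1504 aligned bases (92.0%), and the next most similar pair of the 9, Aldh1b1 and Aldh2, reached 71.7%. These 2 genes were also the 1 pair of 36 that shared a run of 76 bases, the read length, with 47 such runs (0.953% of those of Aldh1a1 and 2.36% of those of Aldh1a7). Their expected counts were not whole numbers in 6 of 6 libraries, whereas those of the other 7 members were whole in all libraries, so their split is less certain than the other values. Added together, Aldh1a1 and Aldh1a7 had a log2 fold change of -0.50 (edgeR adjusted p = 0.405). Per kilobase, Aldh1a7 made up 36.3%, 43.1% and 48.3% of their sum in knockout replicates 1 to 3, against 29.9%, 25.5% and 26.9% in the same-numbered WT libraries, without overlap.

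Aldh3a2, the fatty aldehyde dehydrogenase of the endoplasmic reticulum (ENSMUSG00000010025.19, chromosome 11, 61223417 to 61267464, minus strand), measured 409, 200.4 and 219 CPM in knockout replicates 1 to 3 and 392, 416 and 387 CPM in WT replicates 1 to 3. Knockout replicate 1 lay within the WT range, and the other 2 knockout libraries lay well below it. The means were 276 ± 115 CPM in knockout liver against 398 ± 15.6 CPM in WT liver (SD, n = 3), and the log2 fold change was -0.53 ± 0.29 (SE, 95% interval -1.21 to 0.16, edgeR adjusted p = 0.293). In replicates 2 and 3 Aldh3a2 fell by 0.94 ± 0.146 on the log2 scale (edgeR adjusted p = 0.00796), and without knockout replicate 1 the adjusted p was 0.00518, against 0.406 to 0.571 without any other single library.

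Aldh9a1, which acts on aminoaldehydes and takes part in carnitine synthesis (ENSMUSG00000026687.14, chromosome 1, 167349991 to 167368532, plus strand), measured 259, 108 and 171 CPM in knockout replicates 1 to 3 and 279.7, 307 and 272 CPM in WT replicates 1 to 3. The groups did not overlap, but knockout replicate 1 lay just under the lowest WT library. Over all 6 libraries the log2 fold change of Aldh9a1 was -0.67 ± 0.307 (SE, 95% interval -1.40 to 0.06, edgeR adjusted p = 0.219). In replicates 2 and 3 it fell by 1.06 ± 0.244 on the log2 scale (edgeR adjusted p = 0.0249), and without knockout replicate 1 the adjusted p was 0.0176, against 0.328 to 0.432 without any other single library.

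Compared per kilobase of exons, the 9 genes spanned a 31.3-fold range of mean level in WT liver and a 34.4-fold range in knockout liver. The length used is that of all annotated exons of a gene together, not that of the transcript expressed. Aldh1a1 and Aldh1a7, with reading frames of 1506 bases each, had exon lengths of 4937 and 2066 bases. The range and the order below thus depend partly on the annotation, which the SDs do not cover. In WT the order of mean level was Adh1 (869 ± 220 CPM per kb), Aldh2 (329 ± 21.7), Aldh1a1 (263 ± 96.2), Aldh1a7 (97.1 ± 27.7), Aldh9a1 (84.6 ± 5.36), Adh4 (82.2 ± 14.8), Aldh3a2 (70.9 ± 2.78), Adh5 (64.0 ± 5.43) and Aldh1b1 (27.7 ± 14.2; SD, n = 3 for each). The neighbours Aldh2 and Aldh1a1, and each pair of neighbours from Aldh1a7 to Aldh3a2, differed by less than the larger of their SDs, and the other 4 steps of this order were larger than that. Adh1 came first in all 6 libraries, and Aldh1b1 came last in all 3 WT libraries. In knockout liver the first 4 places were those of WT, and Aldh1b1 followed in place 5 by mean level (71.3 ± 11.1 CPM per kb), with place 7 in knockout replicate 1 and place 5 in knockout replicates 2 and 3. Adh4 came last in all 3 knockout libraries, at 30.1 ± 18.8 CPM per kb. Summed over the 9 genes, the level was 6255, 5891 and 5528 CPM in knockout replicates 1 to 3 and 6338, 6468 and 6208 CPM in WT replicates 1 to 3, so that knockout replicate 1 lay within the WT range.

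The change was then compared between the replicate 1 pair and replicates 2 and 3, with an interaction term fitted in edgeR over all 6 libraries. In 8 of 9 members the size of the log2 difference was larger in replicates 2 and 3 than in the replicate 1 pair, the exception being Aldh1a7. In 4 members (Adh1, Aldh1a1, Aldh2 and Aldh3a2) the 2 signs were opposite. Of these, Aldh2 (0.007) and Aldh3a2 (0.062) differed little in the replicate 1 pair, where Adh1 stood at -0.305 and Aldh1a1 at 0.443. Neither pattern was counted over all genes, so neither is read as particular to the members. The difference of Stk11, outside the set, was also larger in replicates 2 and 3 (-2.38) than in the replicate 1 pair (-1.58). The interaction passed an adjusted p of 0.05 in 1 of 9 members, Aldh1b1, beside 2.9% of all genes tested, and 4 members had an unadjusted p below 0.05, beside 20.9%. For Aldh1b1 the log2 difference of the replicate 1 pair minus that of replicates 2 and 3 was -1.58 ± 0.199 (SE, edgeR adjusted p = 0.0228). For Adh4 it was 1.85 ± 0.419 (edgeR adjusted p = 0.0925), for Aldh3a2 1.00 ± 0.261 (edgeR adjusted p = 0.124) and for Aldh1a1 1.59 ± 0.527 (edgeR adjusted p = 0.183). The term rests on 1 library per group of the Xist kind, which the fit takes to vary like the others. None of these 3 passed, nor did the remaining 5 members, whose adjusted p ran from 0.250 for Adh1 to 0.823 for Adh5.

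**Figure D3:**
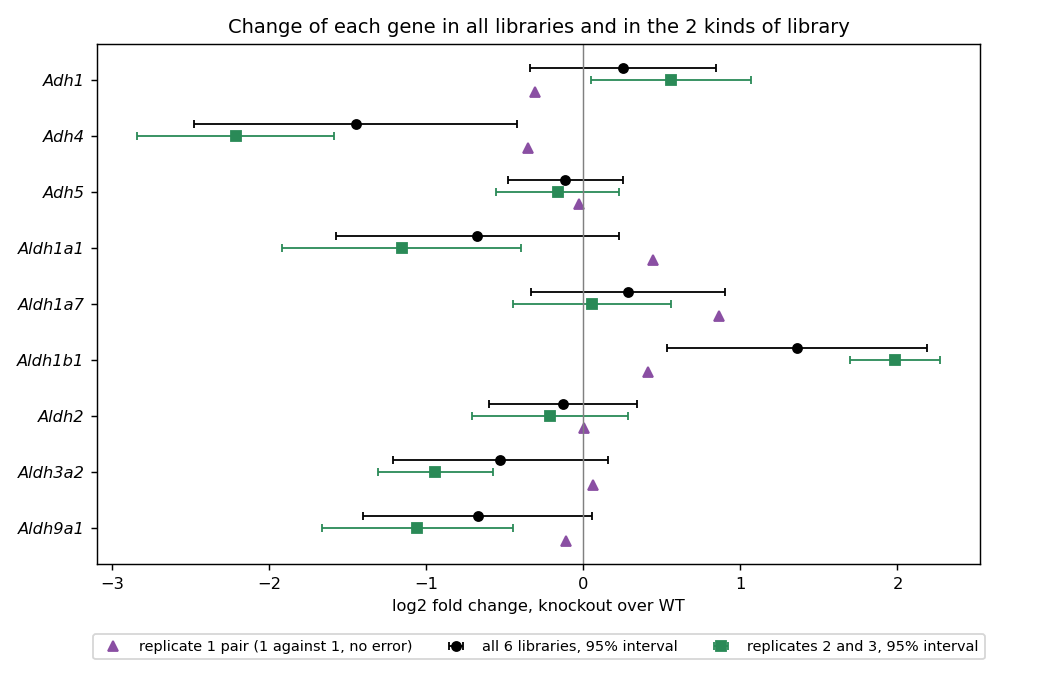
Log2 fold change of each of the 9 genes, knockout over WT (horizontal axis), from all 6 libraries (black circles) and from replicates 2 and 3 of each group (green squares), both with 95% intervals, and from the replicate 1 pair (purple triangles, 1 library against 1, no error). For 8 of the 9 genes the square lies farther from 0 than the triangle, most widely for Adh4 (-2.21 against -0.35) and Aldh1b1 (1.98 against 0.41). The share of all genes with this pattern was not counted.

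The other genes of the pathway were examined in 5 lists of 79 genes in all. Of 4 other alcohol dehydrogenases 2 were tested and 0 passed over all 6 libraries. Both had an unadjusted p below 0.05, beside 26.3% of all genes. Adh7, which oxidises retinol mainly outside the liver, was low at 3.05, 7.96 and 4.54 CPM in knockout replicates 1 to 3 and 1.52, 0.829 and 1.41 CPM in WT replicates 1 to 3. All knockout libraries lay above all WT libraries, and the log2 fold change was 2.05 ± 0.421 (SE, edgeR adjusted p = 0.0520). Adh7 rose by 2.48 in replicates 2 and 3 (edgeR adjusted p = 0.00829). Adhfe1, a mitochondrial enzyme that oxidises gamma-hydroxybutyrate, had a log2 fold change of 0.42 and an edgeR adjusted p of 0.185. Of 15 other aldehyde dehydrogenases 12 were tested, 0 passed and 4 had an unadjusted p below 0.05, beside the same 26.3%. By sign 9 of the 12 were higher and 3 lower in knockout, with a median log2 fold change of 0.38 against 0.01 over all genes. The smallest adjusted p in this list belonged to Aldh16a1 (log2 fold change 0.50 ± 0.112, edgeR adjusted p = 0.0614) and to Aldh4a1 of proline breakdown (0.78 ± 0.207, edgeR adjusted p = 0.0801). Of 11 genes of this list tested in replicates 2 and 3, 2 passed as higher and 0 as lower, beside 17.2% and 16.1% of all genes. Aldh16a1 was 1 of the 2 (0.55, edgeR adjusted p = 0.0142), and Aldh4a1 did not pass (0.77, edgeR adjusted p = 0.0598).

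In the list of retinoid metabolism and receptors 27 of 30 genes were tested, and 1 passed over all 6 libraries. This was Bco2, an enzyme that cleaves carotenoids, at 10.5, 5.49 and 7.70 CPM in knockout and 25.0, 25.6 and 25.6 CPM in WT replicates 1 to 3. Bco2 fell by 1.68 ± 0.232 on the log2 scale (edgeR adjusted p = 0.0226), and in replicates 2 and 3 by 1.96 (edgeR adjusted p = 0.00180). The call over all 6 libraries was lost without knockout replicate 3 (log2 fold change -1.67, adjusted p = 0.123), WT replicate 2 (-1.68, adjusted p = 0.133) or WT replicate 3 (-1.68, adjusted p = 0.122), and with the replicate number as a block (-1.73, adjusted p = 0.0512). By sign 9 retinoid genes were higher and 18 lower, with a median of -0.39, and 10 had an unadjusted p below 0.05, beside 26.3% of all genes. With replicates 2 and 3, 4 of 27 passed as higher and 12 as lower, beside 17.2% and 16.1% of all genes. All 5 other enzymes of ethanol and acetate were tested, and 0 passed. Of these enzymes 4 had an unadjusted p below 0.05, beside the same 26.3%, and the median was -0.99. In replicates 2 and 3, 1 of them passed as higher and 3 as lower, beside the same 17.2% and 16.1%. Among them Cyp2e1, the cytochrome of microsomal ethanol oxidation, averaged 1183 ± 882 CPM in knockout liver against 6273 ± 660 CPM in WT liver (SD, n = 3), and its log2 fold change was -2.41 ± 0.555 (edgeR adjusted p = 0.0640) over all 6 libraries and -3.13 in replicates 2 and 3 (edgeR adjusted p = 0.00474). Acss2, which makes acetyl-CoA from acetate, had a log2 fold change of -1.17 ± 0.334 (edgeR adjusted p = 0.0922), and of -1.71 in replicates 2 and 3 (edgeR adjusted p = 0.00391). Of 25 aldo-keto reductases, aldehyde oxidases and other carbonyl enzymes 23 were tested, 0 passed and 11 had an unadjusted p below 0.05, beside 26.3% of all genes, with a median of -0.09. With replicates 2 and 3, 4 of 23 passed as higher, close to the 17.2% of all genes, and 6 as lower, beside 16.1%. The smallest adjusted p there belonged to Akr1c14 (log2 fold change -1.22, edgeR adjusted p = 0.0576) and to Xdh, the xanthine dehydrogenase (1.14, edgeR adjusted p = 0.0612). Both passed in replicates 2 and 3, Akr1c14 at -1.53 (edgeR adjusted p = 0.00936) and Xdh at 1.40 (edgeR adjusted p = 0.00329).

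**Figure D4:**
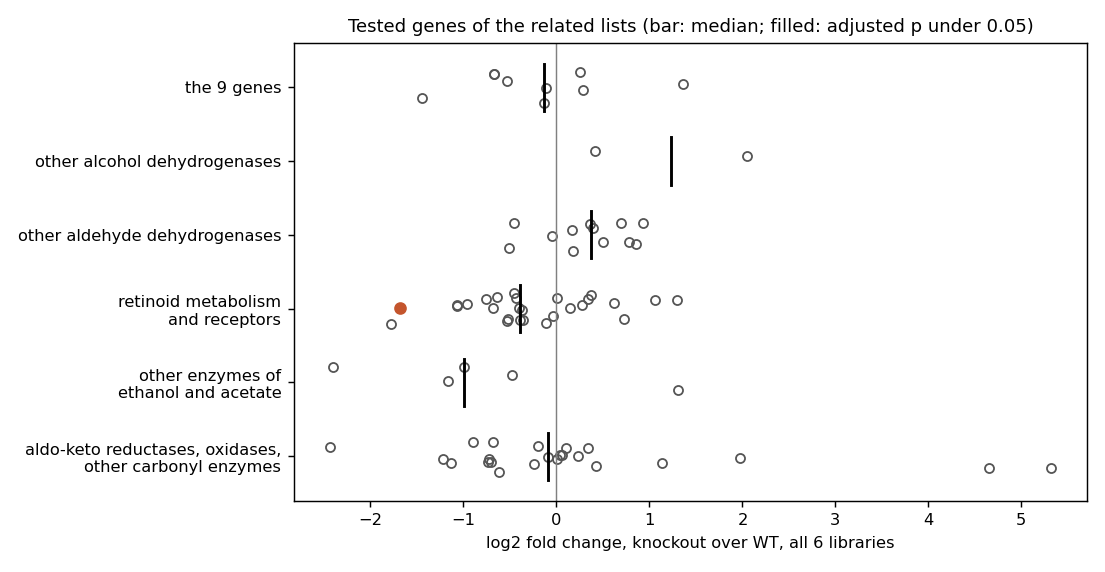
Log2 fold change over all 6 libraries (horizontal axis, knockout over WT) of each tested gene in the set of 9 and in the 5 related lists, with a bar at each list's median and a filled point for an adjusted p below 0.05. The 1 filled point is Bco2 (-1.68), and the medians run from -0.99 for the enzymes of ethanol and acetate to 1.23 for the 2 other alcohol dehydrogenases tested.

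Among the genes outside the set whose log2 CPM followed Adh4 most closely were Adipor2 (Pearson r = 0.999 over 6 libraries) and Pcdh1 (0.998). These libraries form 2 groups and share their scaling, and the values are a description. Adipor2, an adiponectin receptor, measured 522, 276 and 360.3 CPM in knockout and 627, 738 and 745 CPM in WT replicates 1 to 3. Adipor2 was picked for this correlation, so that an order of libraries like that of Adh4 follows from the choice. Its log2 fold change was -0.87 (edgeR adjusted p = 0.102), and -1.23 in replicates 2 and 3 (edgeR adjusted p = 0.00820).

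Hepatocyte markers defined the tissue in every library, and none of the markers of 6 cell types was at 0 in all 6 libraries. Summed over 7 genes, hepatocyte markers ran from 17117 to 66218 CPM in knockout and from 81917 to 119890 CPM in WT libraries. In edgeR 0 of 7 passed the adjusted threshold and 3 had an unadjusted p below 0.05, beside 26.3% of all genes. The sum of 7 endothelial markers ran from 75.5 to 129 CPM in knockout and from 156 to 214 CPM in WT. Of these markers 0 of 7 passed the threshold and 6 had an unadjusted p below 0.05, beside the same 26.3%. The ranges of the 2 groups overlapped for Kupffer cell markers (66.5 to 150 against 97.5 to 131 CPM), stellate cell markers (160.2 to 299 against 232 to 506 CPM), bile duct markers (25.0 to 74.9 against 39.6 to 73.1 CPM) and lymphocyte markers (4.18 to 9.37 against 6.29 to 9.01 CPM). An unadjusted p below 0.05 occurred in 0 of 7 Kupffer cell, 0 of 7 stellate cell, 0 of 6 bile duct and 1 of 5 lymphocyte markers. Most of the hepatocyte sum was Alb, at 95626 of 119890 CPM in WT replicate 1. The 7 hepatocyte markers did not move alike: Alb, Apoa1, Apob, Ttr and Fga were lower in all knockout libraries than in any WT library, Asgr1 had a log2 fold change of -0.18 with overlapping groups, and Hnf4a had one of 0.20 with every knockout library above every WT library.

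Restricted to replicates 2 and 3, 5 of 7 hepatocyte markers (Alb, Apoa1, Apob, Ttr and Fga) and 5 of 7 endothelial markers passed as lower in edgeR, beside 16.1% of all genes. Of the 7 Kupffer cell markers 3 passed as lower there, among them Vsig4 (-1.66) and Adgre1 (-1.27), and 1, Marco, as higher (0.95). Of the other lists 2 of 5 lymphocyte markers, 1 of 7 stellate cell markers and 1 of 6 bile duct markers passed as lower and 0 as higher. These falls stood in the same libraries as those of Adh4, Aldh1a1, Aldh3a2 and Aldh9a1, and their part in the members' results was not tested.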

How the data were processed

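The authors deposited 1 table of expected counts, which are estimated reads per gene, for 55450 genes in 6 libraries, and no other values were used. Per the submitters' processing notes, bcl2fastq 2.17, cutadapt 1.18, STAR 2.7.0f and RSEM 1.3.1 were used. The notes name the build mm9, whereas all 55450 gene identifiers, with their versions, are in GENCODE M21 (GRCm38), from which positions and exon lengths were taken. The use of strand is not given in the sources used here. Genes that overlap a member on the other strand held at most 37 counts in any library.

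Groups and replicate numbers came from the sample titles, and 0 columns were left without a sample. Counts were rounded, genes were filtered with filterByExpr, which left 14539, library sizes were adjusted with TMM, the trimmed mean of M-values, and knockout was compared with WT by edgeR 4.0.16's quasi-likelihood test in R 4.3.3, with Benjamini-Hochberg adjustment over all genes tested and a threshold of 0.05. CPM uses the scaled library sizes. The SE is the log2 fold change divided by the square root of the F statistic. The lowest count of a member in a library was 1186, so counting error is small beside the spread between mice. The p-values measure the spread within groups, which over all 6 libraries includes any difference between the 2 kinds of library. Libraries were checked for repeats, and no pair agreed within sampling noise. The test was tried on simulated data with the spread of these libraries. There edgeR recovered 4.1% of 2-fold and 59.6% of 4-fold changes, and 13.0% of its calls were false. DESeq2 recovered 26.5% and 81.9%, and 34.4% of its calls were false. The interaction fit recovered 0% of either size there, whereas it called 421 genes in the data. The simulated spread was estimated with group as the only term, so it includes the difference between the 2 kinds of library. The interaction fit sets that difference apart, so its simulated recovery does not describe its power in these data. A member that did not pass can thus still differ between the groups.

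The members and lists were chosen with earlier results of these data known. Named are all 9 members, Stk11, the genes of each list past the threshold (up to 6) or else the 2 with the smallest adjusted p, and the 3 genes nearest to Adh4, of which 1 is not reported here. Alternatives were DESeq2 1.42.0, limma 3.58.1 (voom), 2 other scalings, 2 other filters, a replicate block, the kind of library as a term, each library left out, replicate 1 left out of both groups and counts not rounded. The last of these, and the alternatives for the interaction, were chosen after seeing the data.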

Additional observations from a re-analysis of the deposited data

Results flagged for a closer look

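Aldh1b1 is listed here because its change differed between the replicate 1 pair, which is 1 library against 1, and replicates 2 and 3. The log2 difference between knockout and WT in the replicate 1 pair, minus that in replicates 2 and 3, was -1.58 ± 0.199 (SE) with an edgeR adjusted p of 0.0228 for the interaction term, whose spread comes from the other 4 libraries, and the kind of library and the single mouse cannot be told apart. Aldh1b1 was higher in knockout in both, by 0.41 in the replicate 1 pair and by 1.98 in replicates 2 and 3. WT replicate 1 held 101 CPM of Aldh1b1, against 46.2 and 43.8 CPM in the other WT libraries, and knockout replicate 1 held 134 CPM, against 179.9 and 177 CPM. Groups of 3 libraries are too small for a check of single outlying samples.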

How the results depend on the processing

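All 9 members kept the sign of their log2 fold change in all 17 settings in which each was fitted. These settings share most of their libraries, so their signs are not independent. Between the replicate 1 pair and replicates 2 and 3, which share none, 4 members (Adh1, Aldh1a1, Aldh2 and Aldh3a2) had opposite signs. In the replicate 1 pair Aldh2 (0.007) and Aldh3a2 (0.062) differed little, so their signs there carry little weight. With 3 mice per group, 1 library decides which members pass, and 1 library of the Xist kind per group is too few for an error of its own. Over all 6 libraries 490 genes were called, 771 without a filter on low counts, 2288 by DESeq2, 1504 with the kind of library as a term, 4847 without replicate 1 of both groups, and from 6 (without WT replicate 2) to 4473 (without knockout replicate 1) with 1 library left out. Library size alone as the scaling gave 380 higher and 131 lower calls, against 313 and 177 with TMM. Members called numbered 0, against 2 by DESeq2, 1 with the kind of library as a term, 5 without replicate 1 of both groups, and 0 to 4 with 1 library left out. Genes called in the 5 related lists numbered 1, against 6 without a filter, 22 by DESeq2, 10 with the kind of library as a term, 33 without replicate 1 of both groups, and 0 to 29 with 1 library left out. The interaction was called in 421 genes and 1 member, in 984 genes and 5 members by DESeq2, and in 2 members with library size alone. The cause of these differences was not tested. With the replicate block, 105 genes, 0 members and 0 genes of the related lists were called. The replicate numbers did not pair the mice by the deviations from the group means: same-numbered libraries correlated at 0.178, 0.044 and 0.068, and of the 3 knockout libraries only replicate 1 correlated best with the WT library of its own number.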
